A study of Homo sapiens with 6 samples.

Results

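The regions described are 612 PPARG ChIP-seq peaks of the cell line OE33 that lie close together in the genome, in 30 densely peaked windows of 1 Mb. Chromosomes 1 to 22 and X were divided into 1 Mb windows, and each peak was placed by its summit, the base of highest signal. A window was dense if it held 20 or more OE33 peaks. Members were the peaks of dense windows with a fold enrichment under 10 and without a single base of overlap with a peak of the second line, Eso26. The 612 members are 6.34% of the 9652 peaks in the OE33 list and 73.3% of the 835 peaks in the dense windows. In all other windows 5947 of 8661 OE33 peaks, 68.7%, met the same fold and overlap limits, so the share in dense windows was only a little higher. The whole series holds 16662 peaks in the lists of both lines. The members were selected on measured values, namely the position, fold enrichment and Eso26 overlap of the OE33 peaks, so every value of the OE33 list below is a description, and none of it was tested.

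OE33 and Eso26 are human esophageal adenocarcinoma cell lines. PPARG binding was measured with an anti-PPARG antibody in chromatin of both lines, with OE33 grown in DMEM and Eso26 in RPMI-1640, so line and medium cannot be told apart. RNA was sequenced from OE33 transfected with siPPARG, an siRNA against PPARG, and from OE33 given a non-silencing siRNA as control, and likewise from Eso26. Lipofectamine RNAiMAX was the carrier for both siRNAs, and both media held fetal bovine serum, penicillin and streptomycin. Each of the 6 groups has 1 list or 1 column of counts, although the design text of the series speaks of triplicates, so no value has a replicate check and all intervals cover counting error only.

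PPARG is a nuclear receptor that binds DNA as a pair with an RXR receptor and switches on genes of fatty acid uptake, synthesis and storage when a lipid ligand is bound. A ChIP-seq peak is a place where more immunoprecipitated fragments were sequenced than a local background predicts. Tumour genomes often carry amplified segments, with ERBB2 on the long arm of chromosome 17 and MET on the long arm of chromosome 7 among the known ones in esophageal adenocarcinoma. DNA present in many copies gives more fragments in an immunoprecipitation and in a control library alike, and so does chromatin that breaks easily. Copy number was not measured in the files used here.

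The peak caller's fold and p-value together give back the numbers behind each peak. Under the formulas of MACS2, the fold is the pileup plus 1 over the local background plus 1, where the pileup is the number of fragments over the summit. The −log10 p is the upper Poisson tail of that pileup. Solving both gave a whole-number pileup and 1 background for 9652 of 9652 OE33 peaks and 7010 of 7010 Eso26 peaks, with the listed −log10 p met within 0.001. The backgrounds ended below at a floor of 0.491 fragments in OE33 and 0.491 in Eso26, and 27.4% of OE33 peaks lay on it. Above the floor, all OE33 backgrounds and 99.9% of Eso26 backgrounds were whole multiples of 1 small step, 0.00663 fragments in OE33 and 0.00420 in Eso26, within 0.05 of a step. Of the OE33 values above the floor, 57.7% were multiples of 50 steps, and 17.3% were multiples of neither 50 nor 10. These are the values of a scaled library counted over windows of a few fixed sizes; which library served as control, and from which cells, is not stated in the sources used here.

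The members were weak peaks by the fold limit of the rule, over a background that was higher than elsewhere in the OE33 list. Their median fold enrichment was 6.01 (interval of the median 5.77 to 6.02), with a range of 2.91 to 9.96. The median −log10 q, the caller's significance after correction, was 5.96 and ran from 2.05 to 47.1. Member peaks had a median width of 346.5 bases (331 to 370) and a median pileup of 11 fragments, with 5 at the least and 75 at the most. The median background was 0.995 fragments (0.875 to 0.995), and 1 in 10 members lay above 3.32. In the 5947 OE33 peaks that met the same fold and overlap limits in all other windows, the medians were 6.04 for fold, 5.79 for −log10 q, 312 bases for width, 10 for pileup and 0.663 for background. The close medians of fold follow in part from the rule, since both sets were cut at fold 10. The medians of −log10 q were also close, while the background differed more.

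A background of 1.5 fragments or more was found under 172 of 612 members, 28.1% (Wilson interval 24.7 to 31.8), against 410 of the 5947 like peaks of other windows, 6.89% (6.28 to 7.57). The floor held 116 members, 19.0%, against 1682 of the like peaks elsewhere, 28.3%. The raised background was not limited to members, because the 117 non-overlapping peaks of fold 10 or more in the same windows had 24.8% at 1.5 or more, and the 106 Eso26-overlapping peaks had 20.8%. A high background lowers the fold by construction and so favours membership, but the like peaks of other windows passed the same limit. The intervals treat peaks as independent, which peaks of 1 window are not, so they are too narrow.

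**Figure D1:**
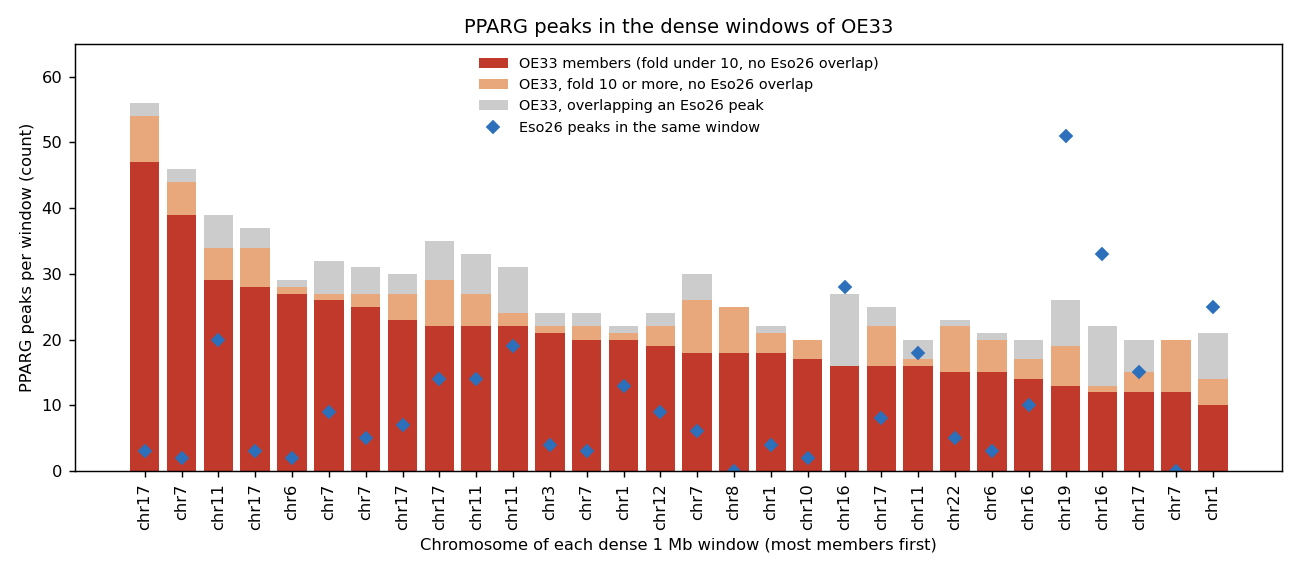
Stacked bars show the number of OE33 peaks in each of the 30 dense 1 Mb windows, split into members, peaks of fold 10 or more, and peaks that overlap an Eso26 peak; diamonds show the number of Eso26 peaks in the same window, and the horizontal axis names the chromosome. Members run from 47 in the first window to 10 in the last. Fewer Eso26 than OE33 peaks lie in 26 of 30 windows, which follows in part from the choice of windows by OE33 peaks.

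The 30 dense windows lay on 12 chromosomes, out of 1982 windows that held any OE33 peak. Chromosome 17 carried 148 members in 6 windows, which is 24.2% of the members, while 6.18% of OE33 peaks on chromosomes 1 to 22 and X were on it. Chromosome 7 carried 140 members in 6 windows, 22.9%, with 8.54% of the OE33 peaks. Chromosome 11 carried 89 members in 4 windows, 14.5%, with 6.19% of the peaks. The remaining members were 48 on chromosome 1, 42 each on chromosomes 16 and 6, 21 on 3, 19 on 12, 18 on 8, 17 on 10, 15 on 22 and 13 on 19.

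The 10 windows with most members held 288 of them, 47.1%, and the other 20 windows held 10 to 22 each. The window chr17:36000001-37000000 led with 56 OE33 peaks, 47 of them members, and a median background over all its OE33 peaks of 1.86 fragments. Next came chr7:102000001-103000000 with 46 peaks, 39 members and a background of 0.50, and chr11:65000001-66000000 with 39 peaks, 29 members and 1.19. The window chr17:39000001-40000000 had 37 peaks, 28 members and the highest background of any dense window, 5.24. The first 4 windows by number of members therefore spanned nearly the whole range of background, with the second of them almost at the floor.

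In chr6:26000001-27000000, 27 of 29 peaks were members and the median background was 0.56. Both chr7:100000001-101000000, with 26 members of 32 peaks, and chr7:116000001-117000000, with 25 of 31, had a higher background, 2.02 and 3.65 fragments. In chr17:37000001-38000000 there were 23 members of 30 peaks and a background of 3.07. The windows chr17:73000001-74000000 and chr11:67000001-68000000 had 22 members each, of 35 and 33 peaks, with backgrounds of 0.66 and 0.86. Among these 10, the windows on chromosomes 6 and 11 and the more distant one on chromosome 17 all stayed under 1.5.

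**Figure D2:**
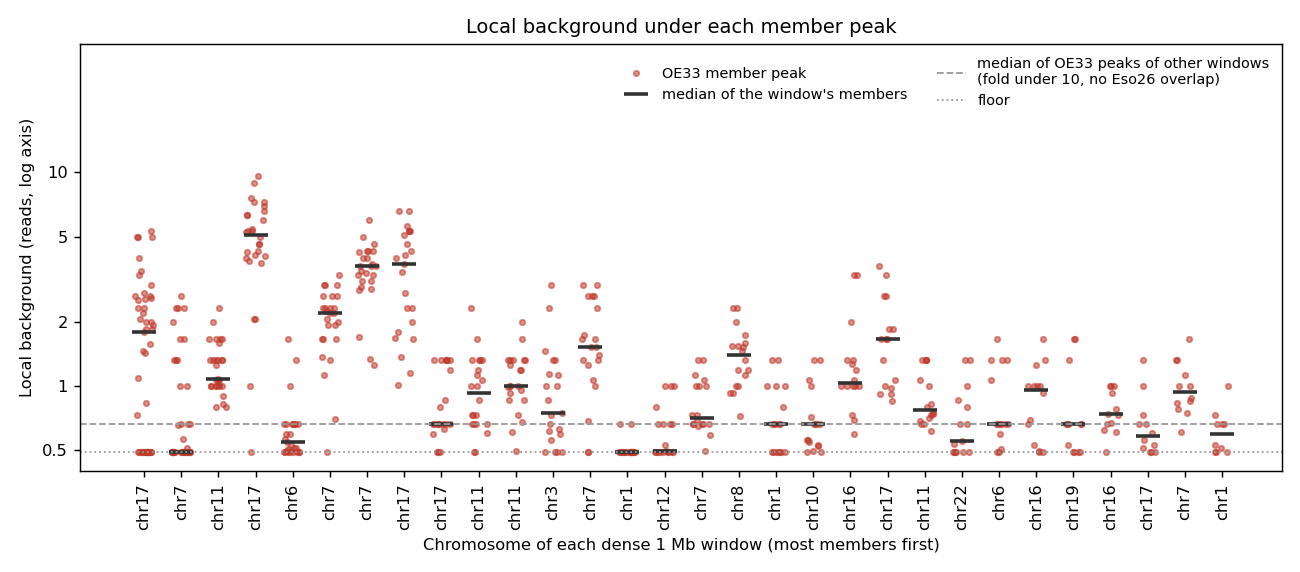
Each point is the local background, in fragments on a log axis, under 1 member peak, arranged by dense window with most members first and the chromosome named below; black bars are the median of the window's members, the dashed line is the median of like OE33 peaks in other windows (0.663) and the dotted line the floor (0.491). Members of chr17 and chr7 windows reach the highest values, while the second window sits mainly on the floor.

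A window was called raised when it held at least 3 OE33 peaks and their median background was 1.5 fragments or more, a limit chosen after the values were seen. Of the 30 dense windows, 7 were raised, 23.3%, against 29 of 1164 windows with 3 to 19 peaks, 2.49%. The 7 raised dense windows held 183 members, 29.9%, with a median background of 2.32 fragments (1.99 to 2.65), a median pileup of 18 and a median fold of 5.36. The other 23 dense windows held 429 members, 70.1%, with a median background of 0.683 (0.663 to 0.749), a median pileup of 10 and a median fold of 6.02. In those 23 windows 9.32% of members had a background of 1.5 or more, and the median was near the 0.663 of like peaks elsewhere. Whether extra DNA copies account for the density of the members was not tested. With a limit of 1.2 fragments, 8 dense windows and 203 members counted as raised; with 2.0, 4 windows and 102 members did.

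Raised windows were not always dense. The 36 raised windows had a median of 9.5 OE33 peaks, with 3 at the least and 56 at the most, against a median of 5 and a range of 3 to 46 in the 1158 windows that were not raised. Of the raised windows 19.4% were dense, against 1.99% of the others. Eso26 showed the opposite order in the same windows, with a median of 1 Eso26 peak in windows raised in OE33 and 3 in the rest. Of the 36 raised windows, 27 lay in a single stretch of chromosome 7, so their medians mainly describe that stretch. Those 27 held 0 to 9 Eso26 peaks each. The 6 raised windows on chromosome 17 held 3 to 8 each, and the 2 on chromosome 8 and 1 on chromosome 20 held 0.

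**Figure D3:**
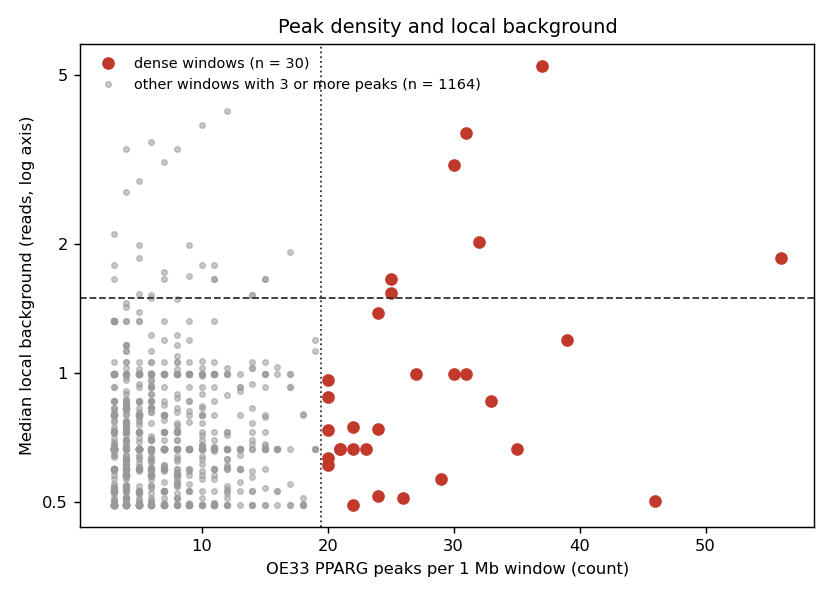
Each point is 1 window of 1 Mb with 3 or more OE33 peaks, placed by its number of OE33 peaks and by the median local background of those peaks, in fragments on a log axis; the dotted line marks the density limit of 20 peaks and the dashed line a background of 1.5. Of the 30 dense windows 7 lie above the dashed line and 23 below it, while 29 sparser windows lie above it too.

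The raised windows formed stretches of neighbours. Chromosome 7 held 27 of the 36, chromosome 17 held 6, chromosome 8 held 2 and chromosome 20 held 1. On chromosome 7 they lay between the windows starting at 76 and 119 Mb, where 27 of the 32 windows with 3 or more peaks were raised. That stretch had a median of 8.5 peaks a window and only 4 dense windows, with 110 members. Of those 4, the windows at 99 and 102 Mb, with 20 and 39 members, were not raised. The stretch was not uniform in background, since the windows that start at 110, 111, 112, 114, 115, 116 and 119 Mb lay between 2.65 and 3.81 fragments. Of those 7, the window at 116 Mb alone was dense, and the other 6 held 4 to 10 peaks.

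On chromosome 17 the 5 windows that start at 35 to 39 Mb were all raised, with medians of 3.12, 1.86, 3.07, 4.11 and 5.24 fragments in that order. They held 7, 56, 30, 12 and 37 OE33 peaks, so 3 of the 5 were dense and carried 98 members. Both neighbours of the stretch, the windows at 34 and 40 Mb, were at 0.57 and 0.64 fragments with 14 and 13 peaks. The background thus differed more than 5-fold between adjacent windows at both ends. The sixth raised window of this chromosome, at 27 Mb, was dense with 16 members at 1.66 fragments, followed by 1.33, 0.99 and 0.66 at 28, 29 and 30 Mb.

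**Figure D4:**
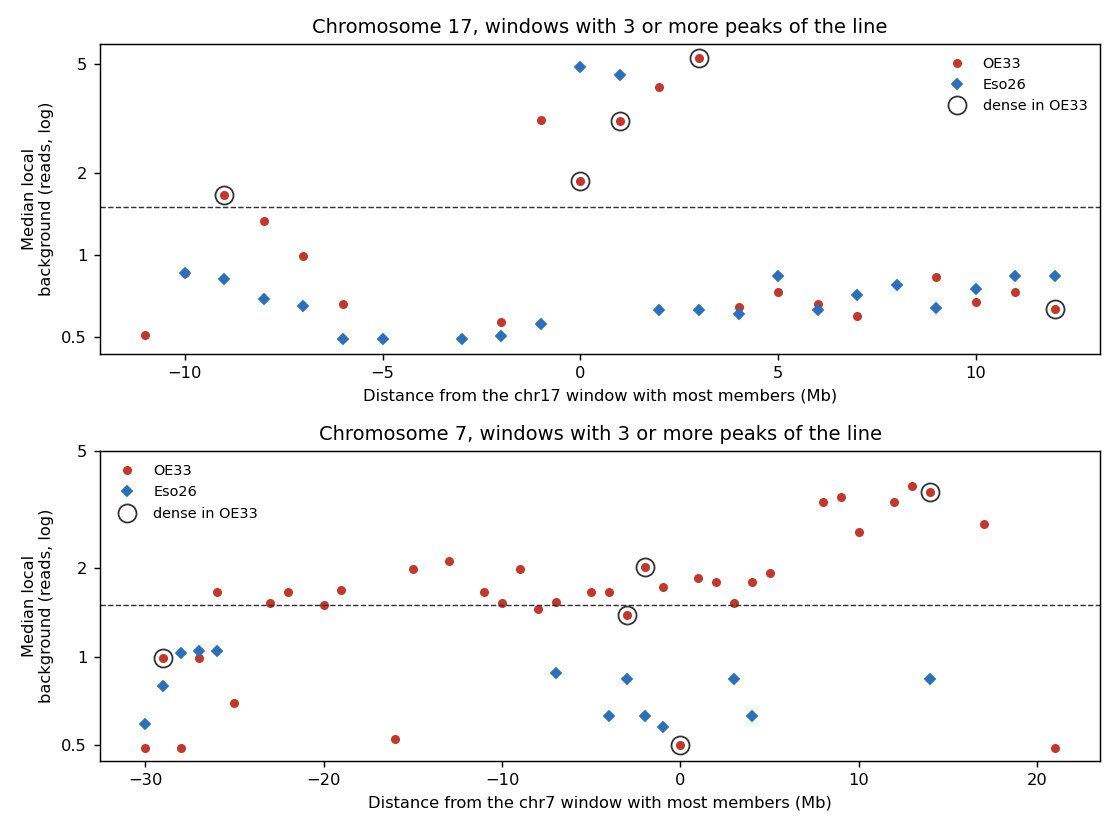
Points give the median local background, in fragments on a log axis, of windows with 3 or more peaks along chromosomes 17 and 7 in OE33 and Eso26, against the distance in Mb from the window with most members; rings mark windows dense in OE33 and the dashed line a background of 1.5. On chromosome 17 the 5 OE33 windows from −1 to 3 Mb are all above 1.5 and the Eso26 windows at 0 and 1 Mb are at 4.87 and 4.53; on chromosome 7, 27 of the 32 OE33 windows of the stretch are above 1.5, with the dense window at 0 near 0.50.

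The same windows were read in Eso26, a line with its own list and background. Eso26 had 335 peaks in the 30 dense windows, with a median of 7.5 a window, and fewer peaks than OE33 in 26 of them. The windows were chosen for many OE33 peaks and the OE33 list is the longer one, so the lower Eso26 counts follow in part from the rule. No Eso26 peak fell into the dense windows at 128 Mb of chromosome 8 and 46 Mb of chromosome 7. The Eso26 background was at 1.5 or more in 2 of the 30, the chromosome 17 windows at 36 Mb (4.87 fragments over 3 peaks) and at 37 Mb (4.53 over 7 peaks). In the window at 39 Mb, where the OE33 background was 5.24, the 3 Eso26 peaks had a median of 0.63. In the raised dense windows of chromosome 7, at 100 and 116 Mb, it was 0.63 over 9 peaks and 0.84 over 5. Backgrounds are in fragments of each line's own library and were not scaled to each other.

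Across all peaks of the dense windows, 106 of 835 overlapped an Eso26 peak, 12.7% (10.6 to 15.1), against 1162 of 8661 in other windows, 13.4% (12.7 to 14.2). The share of peaks under fold 10 was 83.1% (80.4 to 85.5) in dense windows and 78.3% (77.4 to 79.1) in the others. Eso26 had 20 dense windows of its own, and 5 were dense in both lines, at 65 Mb of chromosome 11, 0 and 2 Mb of chromosome 16, 1 Mb of chromosome 19 and 1 Mb of chromosome 1. These 5 held 80 members, and none was raised in OE33. There 39 of 135 OE33 peaks overlapped an Eso26 peak, 28.9%, against 67 of 700 in the other 25 dense windows, 9.57%. Because these 5 were picked for many Eso26 peaks, a higher share of overlap follows in part from that choice.

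The 5 members of highest −log10 q all came from the raised windows of chromosome 17. The member of highest −log10 q was chr17:37861946-37862776, with a pileup of 75 fragments over a background of 6.63, a fold of 9.96 and a −log10 q of 47.1. The second, chr17:39956848-39958159, had 70 fragments over 6.30, a fold of 9.73 and a −log10 q of 43.4. The third, chr17:36441838-36442816, had 57 over 4.97, a fold of 9.71 and a −log10 q of 35.8. All 3 had a deep pileup, a high background and a fold just under the limit. This follows from the rule, since under a fold of 10 a −log10 q this high needs a deep pileup over a high background. The ranking by −log10 q among members therefore favours windows of raised background.

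Next in −log10 q were chr17:39559822-39560957, at 55 fragments over 5.97, and chr17:39573630-39574597, at 60 over 7.63, with folds of 8.04 and 7.07. The highest background of any member lay nearby at chr17:39948660-39949998, a peak chosen after its values were seen, with 42 fragments over 9.62 and a fold of 4.05. In 2 windows that were not raised, the member of highest fold was far shallower. It was chr7:102172035-102172455, with 18 fragments over 0.99 and a fold of 9.53, and chr6:26158356-26158661, with 12 over the floor and a fold of 8.72. A similar fold thus came with pileups from 12 to 70.

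At the fold limit, the members just inside were chr17:37861946-37862776 at 9.96, chr11:65625000-65625851 at 9.88 and chr11:67330848-67331665 at 9.83. The peaks just outside were chr11:66897656-66898204 at 10.02, chr17:27279037-27279710 at 10.04 and chr17:36329066-36330195 at 10.06. The last of these lay on the floor with 14 fragments, between members of its window.

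Part of the members lay in tight chains. Neighbouring member summits in a window were a median of 16828 bases apart (14319 to 20357), and 167 of 582 gaps were 5 kb or less, 28.7%. A chain was taken as 4 or more members with gaps of at most 5 kb, a definition set after the data were seen. There were 12 chains with 65 members, 10.6%, against 15 chains with 74 of the 5947 like peaks elsewhere, 1.24%. Since dense windows are chosen for close peaks, more chains there follow from the rule. Of the 65 chained members 41 were at the floor, 63.1%, against 75 of the 547 other members, 13.7%. A single chain on chromosome 1 gave 17 of the 41 chained members at the floor. Elsewhere 44.6% of chained and 28.1% of other like peaks were at the floor. The share depended on the gap allowed. With gaps of at most 2 kb, 8 of 20 chained members were at the floor, 40%, against 57.1% of 21 chained like peaks elsewhere; with 10 kb it was 54 of 112, 48.2%, against 29.4% of 197.

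The longest chain was on chromosome 1, with 17 members whose summits ran from 228744460 to 228781754, a span of 37.3 kb. All 17 were at the floor, with folds of 4.02 to 8.72 and a median gap of 2122 bases. This chain made its window dense, since the window had 22 OE33 peaks, 20 of them members and 18 of these at the floor. The long arm of chromosome 1 is known to carry the tandem array of 5S ribosomal RNA genes; whether the chain lies in it was not looked up here, and repeated sequence was not tested.

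The next chain held 6 members on chromosome 17, from 36321789 to 36332398, all at the floor and 10.6 kb long. Floor members were mixed with high ones in that window, with 17 of 47 at the floor and the other 30 at a median of 2.32 fragments and up to 5.31. The 17 lay between 36285925 and 36648478. In chr7:102000001-103000000, 21 of 39 members were at the floor, between 102119429 and 102315203, and the other 18 had a median of 1.32 and a highest value of 2.65. That window held 3 chains of 4 members, 11 of the 12 at the floor, inside a stretch whose windows on either side had medians of 1.72 and 1.86. Floor and raised background thus occurred side by side within single windows. Alignment of reads to repeated sequence was not tested.

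The RNA libraries show whether the lines differ in transcripts from the same chromosomes. Their totals were 18163767 counts in OE33 siPPARG, 16866996 in the OE33 control, 20534170 in Eso26 siPPARG and 23019840 in the Eso26 control. The epithelial keratin gene KRT19 had 88891 counts in the OE33 control and 18628 in the Eso26 control, and all 7 columnar epithelial markers passed the filter of 5 CPM, a gene's count after adjustment for library size, in the comparison of lines. The intestinal genes CDX2 and VIL1 were low in OE33, with 240 and 18 counts in its control against 3911 and 20313 in the Eso26 control. Of the fat cell markers 0 of 5 passed the filter, of the immune ones 1 of 5 (LYZ) and of the mesenchymal ones 1 of 5 (COL1A1). In that comparison a gene could pass through Eso26 alone. Between OE33 siPPARG and the OE33 control, 6 of 7 columnar markers passed, and 0 of 5 in each of the immune and mesenchymal lists. In bulk RNA, a smaller number of cells with a transcript and less transcript per cell cannot be told apart.

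PPARG had 313 counts in OE33 siPPARG and 2156 in the OE33 control, 7.37-fold lower with siPPARG (interval 6.54 to 8.32). In Eso26 it had 201 counts in the library labelled siPPARG and 259 in the control, a ratio of 0.843 (0.698 to 1.02). The OE33 control held 11.5 times as much PPARG as the Eso26 control (10.1 to 13.2). The line with the longer peak list was thus the one with more PPARG transcript in its control library.

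No hg19 annotation was used here, so windows were not matched to genes, and transcripts were read by chromosome, by gene list and by gene order in the RefSeq table. Between the controls, 21.1% of 11205 genes were higher in OE33 past 2-fold and 16.6% were lower. The median log2 ratio of OE33 to Eso26 was −0.01 over the 677 genes of chromosome 17, where 138 were higher past 2-fold and 89 lower. It was 0.40 over the 549 genes of chromosome 7, where 179 were higher, 32.6%, and 0.21 over chromosome 11. Chromosome 10, with 17 members, had a median of 0.77 and chromosome 20, with 0 members, one of 0.56. The order of chromosomes by members and by transcript ratio thus differed.

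For the list of 29 genes at 17q12, the region that holds ERBB2, 24 passed the filter in the comparison of lines. Past 2-fold, 6 were higher and 10 lower in OE33, beside 21.1% and 16.6% of all genes, and the list's median was −0.55, against 0.01 over all genes. The median stayed at −0.55 with ZPBP2, a gene at 0 in OE33, set to its bound of 3 counts. ERBB2, a receptor tyrosine kinase, had 18614 counts in OE33 siPPARG, 18519 in the OE33 control, 72449 in Eso26 siPPARG and 66245 in the Eso26 control. That is 1106 CPM in the OE33 control and 2857 CPM in the Eso26 control, 2.58-fold lower in OE33 (2.54 to 2.63).

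Genes of this list lay on both sides of the Eso26 level. PGAP3, an enzyme that remodels GPI anchors, was 6.91-fold lower in the OE33 control (6.30 to 7.60), with 498 counts against 4768 in the Eso26 control. PPP1R1B, a phosphatase inhibitor, had 4 counts in the OE33 control and 3552 in the Eso26 control. GRB7, an adaptor of receptor kinases, differed little, with 6718 counts in the OE33 control and 10581 in the Eso26 control, a ratio of 0.879 after scaling. These 3 genes and ERBB2 were all lower in OE33, by very different factors.

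Other genes of the list were higher in OE33. PSMD3, a proteasome subunit, had 20750 counts in the OE33 control and 4965 in the Eso26 control, 5.79-fold more (5.61 to 5.97). CDK12, a kinase of RNA polymerase II, had 7237 in the OE33 control and 2331 in the Eso26 control, 4.30-fold more (4.10 to 4.51). MED1, the Mediator subunit through which nuclear receptors including PPARG contact the transcription machinery, had 4673 in the OE33 control against 1483 in the Eso26 control, 4.36-fold more (4.12 to 4.63). MED24, a second Mediator subunit, was 3.97-fold higher and FBXL20, part of a ubiquitin ligase, 8.33-fold higher.

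In RefSeq order, 74 genes from LHX1 to RAB5C, a stretch chosen after the values were seen, passed the filter. Of these, 30 were higher past 2-fold in OE33, 40.5%, and 23 lower, 31.1%, beside 21.1% and 16.6% of all genes. Cut wherever the sign of the ratio changed, the stretch fell into 25 runs, of which 4 held 5 or more genes (33 genes in all) and 21 held 1 to 4 (41 genes). Within a run the direction is the same by definition, so the 4 longest are a description. The 11 genes from LHX1 to SOCS7 included 11 that were higher past 2-fold, and the median of their log2 ratios was 2.75. From ARHGAP23 to PSMB3, 6 of the 7 genes were lower past 2-fold, with a median of −1.23. From CACNB1 to CDK12, 5 of 5 were higher past 2-fold, with a median of 2.60, and from PPP1R1B to GSDMB, 7 of 10 were lower past 2-fold, with a median of −2.08. With LHX1, at 0 in the Eso26 control, and ZPBP2 set to their bounds of 3 counts, the medians of their runs stayed as given. The order is that of a later genome build than the peaks, and the runs were not matched to the raised windows.

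**Figure D5:**
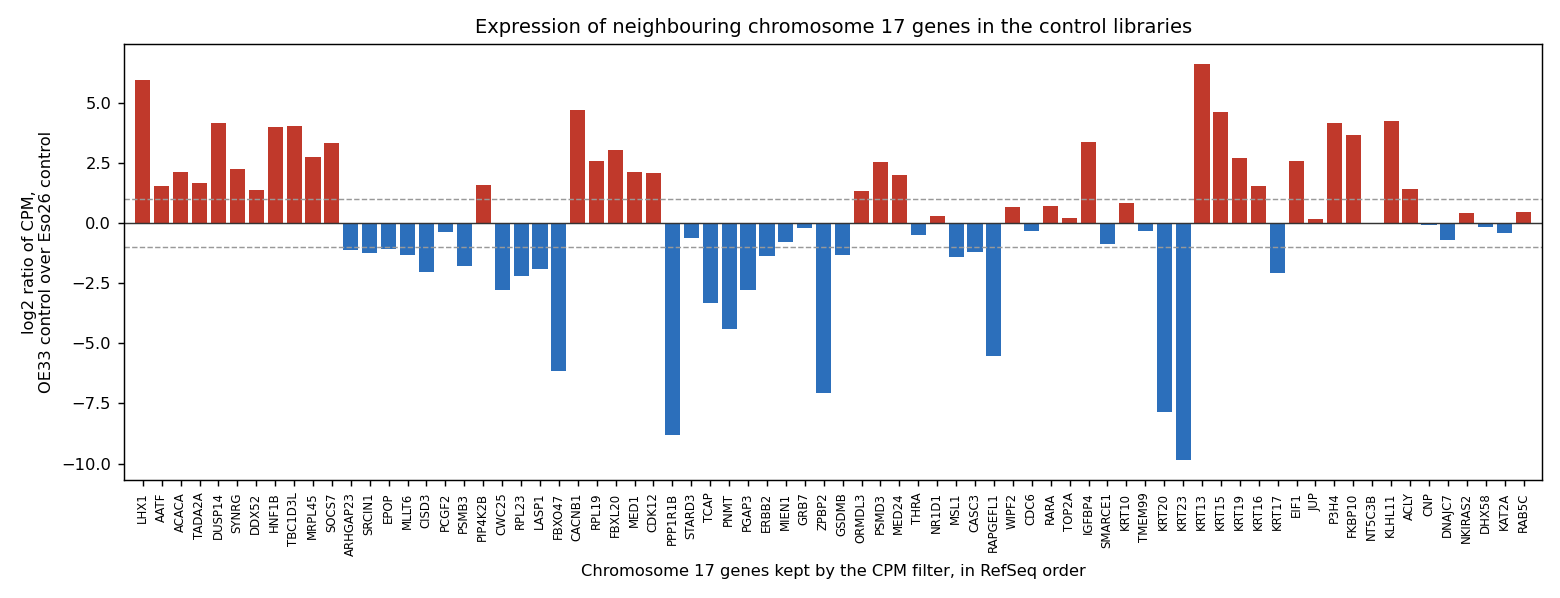
Bars give the log2 ratio of CPM in the OE33 control over the Eso26 control for 74 neighbouring chromosome 17 genes in RefSeq order, 1 library each, with dashed lines at 2-fold either way; LHX1, ZPBP2 and KRT13 are at 0 in 1 of the lines and their bars are fitted values. Red bars from LHX1 to SOCS7 and from CACNB1 to CDK12 are higher in OE33, and blue bars from ARHGAP23 to PSMB3 and from PPP1R1B to GSDMB are lower.

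The list of 24 genes often amplified in this cancer gave 21 genes past the filter, 7 of them higher and 3 lower past 2-fold, again beside 21.1% and 16.6% of all genes, with a median of 0.49. MET, the receptor of hepatocyte growth factor on chromosome 7, had 124174 counts in OE33 siPPARG, 101012 in the OE33 control, 3496 in Eso26 siPPARG and 4691 in the Eso26 control. It was 29.8-fold higher in the OE33 than in the Eso26 control (29.0 to 30.7). Neighbours, here and for the other genes named below, were the nearest in RefSeq order among genes that passed the filter in the comparison of lines. Genes below the filter in both lines were skipped, and a gene could enter through OE33 alone. The 10 such genes nearest to MET, 5 on each side and MET left out, had a median log2 ratio of 2.04, with 8 of 10 higher past 2-fold and 0 lower. The run of 11 that includes MET had a median of 2.13. Over all 10933 such runs of 11 the median was −0.05, the 95th percentile 1.21, and 0.896% were at 2 or more.

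MYC, a growth-promoting transcription factor on chromosome 8, had 5426 counts in the OE33 control and 3298 in the Eso26 control, 2.28-fold more (2.18 to 2.38). Its 10 nearest genes had a median log2 ratio of 1.34, with 6 of 10 higher past 2-fold and 1 lower, but its 20 nearest had a median of 0.63, with 9 of 20 higher past 2-fold. CDK6, a cell cycle kinase on chromosome 7, was 1.73-fold higher, and its 10 nearest genes had a median of 1.25. EGFR, a growth factor receptor also on chromosome 7, was 8.58-fold higher, while its 10 nearest genes had a median of 0.06. The 10 nearest to ERBB2 had a median of −2.05, with 6 lower and 1 higher past 2-fold, and the 20 nearest one of −0.34, with 7 lower and 8 higher. Among the 20 nearest genes, 14 were higher past 2-fold and 2 lower around MET. Around CDK6 10 of 20 were higher and 0 lower, with a median of 1.02, and around EGFR 3 were higher and 4 lower. Over all genes the shares were 21.1% higher and 16.6% lower.

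With siPPARG the genes of both lists that passed the filter stayed within 2-fold of the control. Between OE33 siPPARG and the OE33 control, 1.04% of 10527 genes were higher past 2-fold and 0.418% lower. Of the 17q12 list 20 genes passed the filter and 0 were past 2-fold either way, with a median log2 ratio of −0.05 and a range of −0.86 to 0.75. Its extremes were RAPGEFL1, with 61 counts in OE33 siPPARG and 105 in the OE33 control, and GSDMB, with 829 in OE33 siPPARG and 460 in the OE33 control. Of the amplified list 20 passed and 0 were past 2-fold, with a median of −0.11. A count of 0 of 20 does not stand apart from shares of 1.04% and 0.418% over all genes.

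Of the 74 chromosome 17 genes in order, 3 were past 2-fold with siPPARG, and these were named after their values were seen. Over the 10527 genes that passed the filter in the OE33 libraries, 1.04% were higher past 2-fold and 0.418% lower. The 74 had passed the filter in the comparison of lines instead, and some had few or no counts in OE33, so the 2 sets are not alike. KRT13, a squamous keratin, had 32 counts in OE33 siPPARG and 165 in the OE33 control, a log2 ratio of −2.39. DHX58, an RNA sensor, had 228 counts with siPPARG and 87 in the control, a log2 ratio of 1.27. KRT16, a stress keratin, had 346 counts with siPPARG and 159 in the control, a log2 ratio of 1.02. The median over the 74 was 0.00. Which of these genes lie near a member peak was not determined here.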

How the data were processed

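PPARG ChIP-seq peak lists (1 per line) and gene counts (1 column per condition) were used as deposited. Per the submitters' processing notes, Trim Galore, STAR, Bowtie, Picard and MACS2 were run on hg19, with no role for each; peak names contain bwa, another aligner. The authors' caller wrote each peak's score, fold enrichment (a ratio), −log10 p and −log10 q, and the score was used only to read the table. The deposited counts are raw whole numbers per gene; counter, strand setting and annotation are not stated. Each table has 37533 rows, and 40 repeated identifiers were summed. No column of another sample was present.

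The members and gene lists were chosen with earlier results of these data known. The limit for a raised window, the chains and the runs of neighbouring genes were set after the values were seen. Pileup and background were solved per peak, and the solver was tested on simulated data. Overlaps were checked with bedtools 2.31.1. Medians carry order-statistic and shares Wilson 95% intervals.

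Counts were scaled with TMM (edgeR 4.0.16, R 4.3.3) and log2 CPM used a prior count of 2. A gene was kept if either library reached 5 CPM, with 2-fold as a threshold of size, and ratios have exact binomial 95% intervals. PCR reads are not independent molecules, so intervals cover counting error only. DESeq2 1.42.0 size factors were an alternative. RefSeq (GRCh38) gave chromosome and gene order only, for 11164 of 11205 genes, in place of the intended match of genes to windows. Named windows and peaks were the 10 windows with most members, the highest fold in each of the first 5, the 5 highest −log10 q and the 3 nearest the fold limit on either side. No sequence is printed, since no hg19 genome was used here.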

Additional observations from a re-analysis of the deposited data

Results flagged for a closer look

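Outside the windows of the rule, 156 OE33 peaks lay off the main sequences of chromosomes 1 to 22 and X. Of these, 93 were on the single contig chr9_gl000199_random, where the Eso26 list has 31. These peaks enter no comparison above and were picked out because a signal this dense appeared in data that the windows leave aside. On that contig the OE33 peaks had a median fold of 12.9 (range 2.92 to 61.0) and a median background of 0.729 fragments, with 24 at the floor, while the Eso26 peaks had a median fold of 3.61 and a median background of 28.8. The cause was not tested.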

How the results depend on the processing

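Among values recomputed under the alternative settings, 76 stayed within their interval (counts within 1.5 times) and 29 moved. Some of the 76 could not change, so the tally does not measure stability. Removal of repeated starts and ends changed nothing, since 0 OE33 peaks repeated them. The shares over dense windows do not depend on the fold limit for members, nor the share under fold 10 on the overlap setting. Among those added after seeing the data, 7 stayed and 3 moved. With windows of 0.5 Mb and a limit of 10 peaks there were 1260 members in 131 windows with a median background of 0.796, and with 2 Mb and 40 peaks 315 members in 8 windows. A limit of 15 peaks gave 1221 members in 82 windows at 0.796. A limit of 30 peaks gave 301 members in 11 windows at 1.33, with a median fold of 5.66 and width of 383. A fold limit of 8 gave medians of 5.59 for fold and 328 for width, and no fold limit 6.04 and 399. The share of peaks with Eso26 overlap in dense windows was 18.2% when a peak within 1 kb counted and 6.35% when 50% of the OE33 peak had to be covered. A pseudocount of 0 in the fold gave a background of 2.94, but met the listed p for only 2 of 612 members. With a limit of 2.0 for a raised window, 102 members lay in raised windows. In the control libraries, no filter gave 3783 higher and 3616 lower genes, and 1.5-fold gave 3134 lower. For siPPARG in OE33, no filter gave 547 higher and 584 lower, so that lower genes outnumbered higher ones, against 110 and 44 as reported. There a filter of 1 CPM gave 205 higher and 84 lower, and 1.5-fold gave 343 and 251. The run of 5 genes centred on MET had a median log2 of 4.90, which is MET's own value, and its 4 neighbours alone had 3.93. The run of 21 centred on ERBB2 had −0.50 and that on MYC 0.65. The cause of these shifts was not tested. The median log2 of all genes lay between −0.03 and 0.04 under every scaling tried.

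No paired analysis was possible because each group has 1 sample, and no replicate was left out for the same reason. The count tables' depth limits low genes: a count of 0 allows up to 3 counts. The peak lists hold only peaks past the caller's threshold, and the total number of fragments behind each list is not known.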
